A study of Homo sapiens with 11 samples.

Results

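Olfactory receptor promoters were examined as a measure of how much H3K4me3 signal falls on a large family of genes best known from the sensory neurons of the nose. The members were the promoters whose gene symbol has the form of an olfactory receptor name, that is, OR followed by a family number, a subfamily letter and a member number. The rule matched 396 of the 26237 promoters listed for BEAS-2B cells, and no measured value entered it. Of the 396 symbols, 375 name receptors and 21 carry a pseudogene or antisense ending. The members belonged to 17 families, 52 of them to class I (families 51 to 56) and 344 to class II.

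H3K4me3 had been measured by ChIP-Seq in BEAS-2B, an established line of human bronchial epithelial cells, in 3 conditions with 1 library each. Untreated cells (UT) were compared with cells kept in 100 μM NiCl2 for 6 weeks (Ni-E) and with nickel washed-out cells (Ni-W). The Ni-W cells had been exposed in the same way, were grown from a single colony, and had then been cultured for more than 6 months without nickel. Ni-W is thus 1 clone, and no cloning is described for UT and Ni-E, so the effect of the washout and the identity of the clone cannot be told apart. RNA-Seq of RT4, an established urinary bladder line, had 2 samples each of UT, Ni-E (100 μM, 6 weeks) and Ni-W (the same exposure, then 2 weeks without nickel). With 1 ChIP library per condition there was no replicate check of any H3K4me3 difference, and the intervals given are 95% Wilson intervals that cover counting error only.

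Olfactory receptors are G protein-coupled receptors that bind odorants, and each mature olfactory neuron transcribes 1 allele of 1 receptor gene and keeps the others in condensed chromatin. The genes lie in clusters, most have a single coding exon, and most of their promoters are poor in CpG. H3K4me3 is deposited around the start sites of active genes and of many CpG islands, and a promoter without it holds background reads only.

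The promoters of the family differ from most others in sequence. RefSeq promoters, 250 bases before to 50 bases after the start site on GRCh38.p14, were found for 296 members. Their median GC content was 37.7% and their median CpG count was 1, against 58.3% and 14 for the 27305 promoters of the RefSeq table. No CpG at all was found in 22.0% of the members' promoters and in 4.16% of all promoters. The TATA motif TATAAA, searched on both strands, was found in 34.1% of the members and 12% of all promoters. The homeodomain motif TAATTA, which is its own reverse complement, was found in 22.6% and 4.98%. A match is a description of the sequence only. In 4-kb windows centred on the GENCODE v44 5′ ends, the members had a median GC content of 38.2% and 26 CpG, against 50.0% and 117 for the 22716 listed promoters with a position.

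The promoters printed here are shown because the results turn on them or because they show the contrast, with every CG dinucleotide in capitals. OR2L13 had the highest H3K4me3 level of the family, and its RefSeq promoter lies on the plus strand at chr1:247936927-247937226, with 67.3% GC and 24 CpG. OR4K2 (chr14:19874892-19875191, plus strand, 1 CpG) and OR5H14 (chr3:98147229-98147528, plus strand, 1 CpG) had the largest log2 ratios of Ni-W to UT, each level taken as RPKM + 0.1. OR1F1 (chr16:3187954-3188253, plus strand, 19 CpG) was rich in CpG and yet low in H3K4me3. RPL26, a ribosomal protein gene that every cell transcribes, gives the marked contrast with 16.003, 16.256 and 7.876 RPKM in UT, Ni-E and Ni-W (chr17:8383144-8383443, minus strand, 19 CpG).
OR2L13: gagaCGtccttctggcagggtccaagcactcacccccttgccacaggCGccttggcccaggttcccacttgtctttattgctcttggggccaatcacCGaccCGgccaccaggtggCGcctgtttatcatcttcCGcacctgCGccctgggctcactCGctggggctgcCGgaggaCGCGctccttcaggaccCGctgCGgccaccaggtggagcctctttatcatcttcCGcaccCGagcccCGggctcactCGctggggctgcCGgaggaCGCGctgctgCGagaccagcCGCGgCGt
OR4K2: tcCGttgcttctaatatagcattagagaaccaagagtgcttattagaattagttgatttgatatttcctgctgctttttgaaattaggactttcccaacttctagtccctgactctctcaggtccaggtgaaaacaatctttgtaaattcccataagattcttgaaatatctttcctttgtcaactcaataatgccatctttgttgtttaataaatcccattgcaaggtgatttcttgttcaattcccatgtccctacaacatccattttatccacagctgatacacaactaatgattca
OR5H14: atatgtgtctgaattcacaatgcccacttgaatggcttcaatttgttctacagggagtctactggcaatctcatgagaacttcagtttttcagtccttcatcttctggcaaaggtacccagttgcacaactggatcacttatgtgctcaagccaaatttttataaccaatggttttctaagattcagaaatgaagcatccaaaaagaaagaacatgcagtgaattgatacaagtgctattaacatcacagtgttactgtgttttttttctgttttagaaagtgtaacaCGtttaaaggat
OR1F1: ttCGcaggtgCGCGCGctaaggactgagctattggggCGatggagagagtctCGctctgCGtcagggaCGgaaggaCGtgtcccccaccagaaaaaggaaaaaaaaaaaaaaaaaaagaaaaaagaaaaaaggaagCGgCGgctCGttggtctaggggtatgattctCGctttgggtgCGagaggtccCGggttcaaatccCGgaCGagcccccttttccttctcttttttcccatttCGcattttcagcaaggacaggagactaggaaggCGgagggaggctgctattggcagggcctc
RPL26: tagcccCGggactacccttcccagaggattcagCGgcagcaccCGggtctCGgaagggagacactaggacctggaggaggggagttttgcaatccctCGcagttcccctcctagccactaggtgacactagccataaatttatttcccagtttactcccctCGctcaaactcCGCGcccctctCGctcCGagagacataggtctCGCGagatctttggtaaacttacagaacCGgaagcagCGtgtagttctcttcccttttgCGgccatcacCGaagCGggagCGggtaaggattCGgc

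The 4-kb promoter values were deposited as RPKM, read counts scaled to the window length and the library size. Each library's values were whole multiples of 1 step, 0.008807 RPKM in UT, 0.006668 in Ni-E and 0.008352 in Ni-W, and those steps give total depths of 28385725, 37493949 and 29933551 reads. A promoter at the background level therefore held few reads: the mean over the 314 members of mostly unique sequence was 28.0 reads in UT, 40.8 in Ni-E and 40.8 in Ni-W. The reads summed over the listed promoter windows came to 37.6% of the depth in UT, 36% in Ni-E and 22.9% in Ni-W. Overlapping windows were not merged, so reads in them count more than once and each share is an upper bound. The sum was smallest in Ni-W. Of the epithelial markers checked, KRT8 (7.328, 7.108 and 4.477 RPKM in UT, Ni-E and Ni-W), KRT18, KRT7 and EPCAM were above 1 RPKM in all libraries. CDH1, the epithelial cadherin, was at 1.022, 0.653 and 0.702 RPKM, and the basal keratin gene KRT5 was at 0.22, 0.3 and 0.15 RPKM, within the range of the olfactory receptor promoters. The mesenchymal markers VIM, CDH2 and FN1 were above 1 RPKM in all 3.

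The olfactory receptor promoters formed a narrow band near the bottom of the range. Their median level was 0.211 RPKM in UT (lowest 0, highest 1.348), 0.2235 RPKM in Ni-E (highest 1.427) and 0.288 RPKM in Ni-W (highest 1.027). The median of all listed promoters was 1.568, 1.387 and 1.119 RPKM, and the median of 80 ribosomal protein promoters was 9.12, 10.15 and 5.069 RPKM. The middle quartiles of the members ran between 0.15 and 0.273 RPKM in UT, between 0.153 and 0.293 in Ni-E and between 0.184 and 0.393 in Ni-W.

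**Figure D1:**
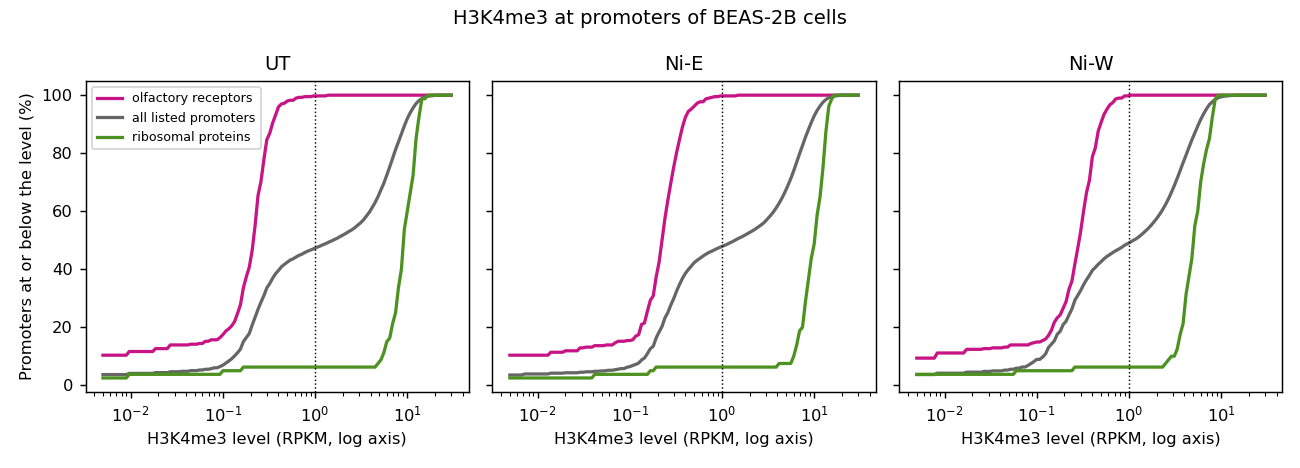
Share of promoters (%) at or below each H3K4me3 level (RPKM, log axis) in the UT, Ni-E and Ni-W libraries, for the 396 olfactory receptor promoters, all 26237 listed promoters and 80 ribosomal protein promoters. The dotted line marks 1 RPKM: 1 member in each library lies at or above it, against 52.8% (UT), 52.2% (Ni-E) and 51.0% (Ni-W) of all promoters.

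The level was close to what reads without any enrichment would give. Reads spread evenly over the assembled bases would give 0.3404 RPKM. With the summed promoter reads taken off, the rest spread in the same way would give 0.2125 RPKM in UT, 0.2178 in Ni-E and 0.2625 in Ni-W. These last levels are lower bounds, since reads in overlapping windows were taken off more than once. Members with at least 80% unique sequence had medians of 0.229, 0.247 and 0.317 RPKM. Against those medians the ribosomal protein promoters stood 39.8 times higher in UT, 41.1 times in Ni-E and 16.0 times in Ni-W. The members did not all share 1 underlying level, since the variance of their read counts was 6.61, 9.72 and 7.2 times the mean, where counting error alone gives a ratio near 1.

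The medians of 3 other gene families were also low. The 82 keratin-associated protein promoters, which serve hair, had medians of 0.2865, 0.313 and 0.351 RPKM in UT, Ni-E and Ni-W. The 36 beta-defensin promoters, a family of antimicrobial peptides many of which are made in the epididymis, had medians of 0.189, 0.2065 and 0.23 RPKM. The highest keratin-associated protein promoter of each library was at 0.59, 0.707 and 0.793 RPKM, and the highest beta-defensin promoter at 0.678, 0.653 and 0.777. The 27 taste receptor promoters had medians of 0.079, 0.02 and 0.1 RPKM, with 13, 12 and 13 of them listed at 0. One of the 27, that of TAS1R1, was marked, with 7.319, 7.201 and 4.31 RPKM. These medians were taken over all listed promoters of each family, with no filter on unique sequence. Some windows, among them those of TAS2R8, KRTAP1-1 and DEFB107B, held 0.0% unique 50-base words with all contigs of the reference searched. Others, such as those of TAS2R1, KRTAP4-1 and DEFB113, held 98.7%, 99.8% and 100.0%. The medians are thus not levels at equal uniqueness. No difference between these families was tested, since promoters are not replicates of a condition.

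Some members were listed at 0, and these were mostly promoters whose sequence is not unique in the reference. In all 3 libraries 35 of the 396 members (8.84%) were at 0, against 849 of all listed promoters (3.24%). A value of 0 allows up to 3 reads, that is 0.0264 RPKM in UT, 0.02 in Ni-E and 0.0251 in Ni-W. Every 50-base word of each promoter window was looked up in the hg38 reference, the read length being 50 nucleotides. Of the 35 members at 0, 33 had under 3% of their words unique over all 455 sequences of the reference, alternate contigs included. For 26 of these 33, more than 90% of the words were unique when only the 24 chromosomes were searched. Only 2 members that were not at 0 in all libraries had under 3% unique words. Which contigs the alignment had used, and how it had treated reads with several matches, is not given in the sources used here.

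The zeros were gathered by position. Chromosome 11 held 13 of them, chromosomes 1 and 6 held 8 each, chromosome 7 held 3, and chromosomes 5, 10 and 15 held 1 each. The promoter of HLA-C, a gene of the chromosome 6 histocompatibility region, was at 0.009, 0.007 and 0 RPKM, although it serves a gene that most cells transcribe. OR52E8 was an exception, with 99.2% unique words and still listed at 0 in all 3 libraries. OR4N3P was the other, with 14.9%.

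**Figure D2:**
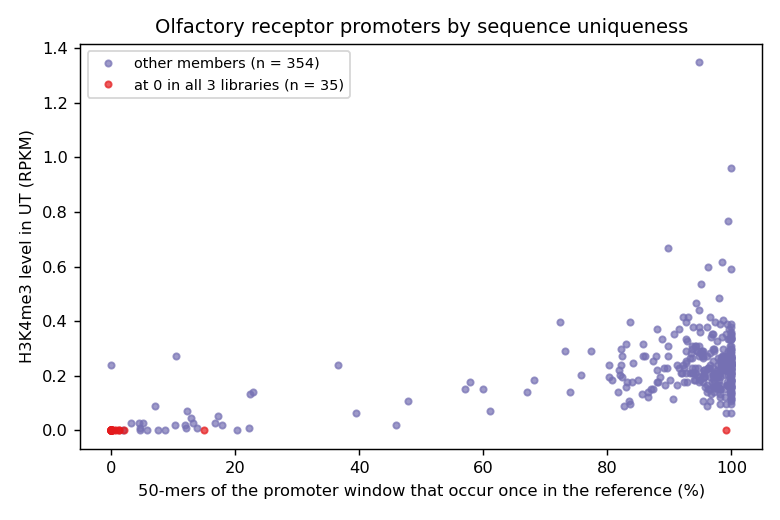
H3K4me3 level in UT (RPKM) of the 389 members with a position, against the share (%) of 50-base words of their 4-kb window that occur once in the reference with all contigs. Each point is 1 promoter, and the 35 points at 0 in all 3 libraries lie at the left edge, apart from OR52E8 at 99.2% and OR4N3P at 14.9%.

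The level depended on uniqueness up to a point and then stayed level. The 44 members with under 10% unique words had a median of 0 in each library, and the 20 members between 10% and 50% had medians of 0.026, 0.03 and 0.05 RPKM. Medians were 0.176, 0.207 and 0.225 RPKM for the 11 members between 50% and 80%. They were 0.229, 0.247 and 0.309 RPKM for the 93 members between 80% and 95%, and 0.229, 0.247 and 0.326 RPKM for the 221 members above 95%. The comparisons by family and by cluster were therefore limited to the 314 members with at least 80% unique words, except that the stretches of the chromosome 14 cluster are given with all 21 listed members. A few members had near-identical copies of each other, and OR2A1 and OR2A42 were both listed with 2, 2 and 1 reads.

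Only 2 members reached 1 RPKM in any library, against 53.8% of all listed promoters. OR2L13 was at 1.348 RPKM in UT (95% interval 1.15 to 1.579, 153 reads), at 1.427 in Ni-E (1.248 to 1.631, 214 reads) and at 0.894 in Ni-W (0.7396 to 1.08, 107 reads). Its Ni-W interval lay below those of both other libraries. OR4K5 was at 0.308 RPKM in UT (0.2217 to 0.4287, 35 reads), at 0.28 in Ni-E (0.2072 to 0.3785, 42 reads) and at 1.027 in Ni-W (0.8611 to 1.226, 123 reads). It reached the limit in the Ni-W library alone, and the lower end of its interval was below 1 RPKM. The limit of 1 RPKM was read from no gap in the data, and the members closest beneath it were OR51E2, OR4K2 and OR5H14.

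OR2L13 was also the member whose RefSeq and GENCODE start sites lie furthest apart. GENCODE v44 places its 5′ end at position 248095184 of chromosome 1, in a window with 38.7% GC and 37 CpG. The RefSeq start site lies 158007 bases away at position 247937177, in a window with 46.2% GC and 113 CpG. Of the 296 members with a RefSeq promoter, 289 had a start site within 2 kb of the GENCODE 5′ end and 7 did not, and the start sites the authors counted around are not given in the files.

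Promoters rich in CpG were rare in the family and differed in level. Only 4 of the 296 RefSeq promoters held 10 or more CpG. Besides OR2L13 these were OR3A2, with 39 CpG and 0.414, 0.487 and 0.309 RPKM in UT, Ni-E and Ni-W, and OR1F1, with 19 CpG and 0.229, 0.387 and 0.125 RPKM. The fourth was OR52N2, with 14 CpG and 0.766, 0.713 and 0.484 RPKM. OR3A2 and OR1F1 were thus below 0.5 RPKM in every library, as were 152 of the 170 members with 0 or 1 CpG.

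OR51E2, a receptor also known from the prostate, was at 0.96 RPKM in UT (0.7959 to 1.158), 0.933 in Ni-E (0.7911 to 1.101) and 0.468 in Ni-W (0.3602 to 0.6073). UT and Ni-E did not differ beyond their intervals, and Ni-W lay below both. With a lower limit of 0.6 RPKM, 5 members were above the background in UT, 9 in Ni-E and 17 in Ni-W, and 25 in any library. Of all listed promoters 56.1%, 55.9% and 55.3% reached 0.6 RPKM in UT, Ni-E and Ni-W, and 58.4% did in any library. The other 371 members stayed below 0.6 RPKM in all 3 libraries.

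**Figure D3:**
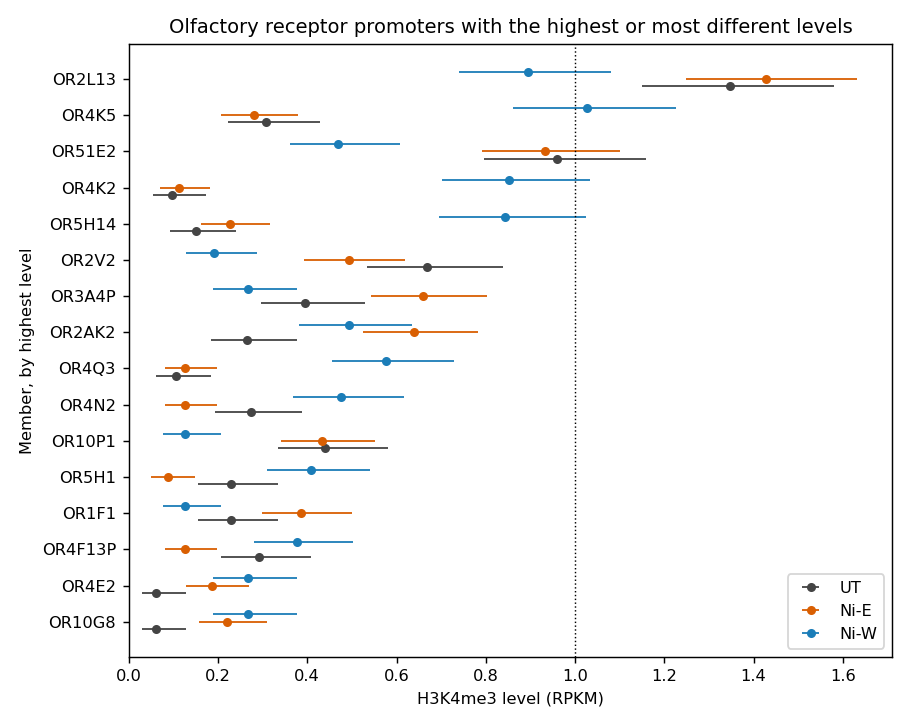
H3K4me3 level (RPKM) of 16 olfactory receptor promoters in UT, Ni-E and Ni-W, ordered by the highest level, with 95% Wilson intervals of the read count as bars. Only OR2L13 (1.348 in UT, 1.427 in Ni-E) and OR4K5 (1.027 in Ni-W) pass the dotted line at 1 RPKM.

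The families resembled each other in level. Among the 11 families with at least 10 listed members, the UT median of the unique members ran from 0.211 RPKM in families 6, 10 and 52 to 0.308 RPKM in family 7. Family 1 was at 0.273 RPKM, family 13 at 0.247 and family 4 at 0.2425. Families 2 and 5 were both at 0.229, family 8 was at 0.2245 and family 51 at 0.22. These medians differ by less than the spread within a family, which in family 2, the largest with 69 listed members, ran from 0.097 to 1.348 RPKM over its 44 unique members. The 52 unique members of class I had medians of 0.2155, 0.22 and 0.309 RPKM in UT, Ni-E and Ni-W, and the 262 of class II had 0.229, 0.247 and 0.317.

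In Ni-W the medians ran from 0.263 RPKM in family 10 and 0.267 in family 7 to 0.351 in family 1. The median log2 ratio of Ni-W to UT, each level taken as RPKM + 0.1, was 0.63 in family 13 and 0.59 in family 5. It was 0.46 in families 2 and 6, 0.4 in family 51, 0.39 in family 8, 0.29 in family 4, 0.28 in family 52, 0.26 in family 1 and 0.25 in family 10. Family 7 was the exception among the 11, with −0.12. Family 7 also had the highest median GC content of the 11, 42.4%, and family 5 had the lowest, 35.6%.

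During nickel exposure the family stayed close to its untreated level. Over all 396 members the median log2 ratio of Ni-E to UT was 0.05, with 19 members more than 1.5-fold higher and 10 more than 1.5-fold lower. Among all listed promoters the median was −0.03, and 2.79% were higher and 1.71% lower by that limit. The members' shares of 4.8% and 2.53% can be read against promoters outside the family that stayed above 0 and below 0.6 RPKM in every library, called unmarked here. Of 7849 such promoters 6.31% were higher and 1.92% lower, and the members' shares were near these. The members themselves were not held to these limits, so the sets are unlike. The split depended on the scaling, at 44 higher (11.1%) and 4 lower (1.01%) with each library divided by its median. In that setting 5.59% and 0.667% of all listed promoters and 12.5% and 0.764% of the unmarked ones were past the limit. It was 12 higher and 17 lower after quantile normalization, for which the share of all listed promoters is not given here. With 1 RPKM added in place of 0.1 it was 0 and 0, where 0.0381% and 0.111% of all listed promoters were.

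The members with the largest log2 ratios of Ni-E to UT were far apart in the genome. OR2AK2 on chromosome 1 was at 0.264 RPKM in UT (30 reads) and 0.64 in Ni-E (96 reads), and stood at 0.493 in Ni-W. OR10G8 on chromosome 11 had 0.062 RPKM in UT (7 reads), 0.22 in Ni-E (33 reads) and 0.267 in Ni-W (32 reads). OR4E2 on chromosome 14 had 0.062, 0.187 and 0.267 RPKM. For all 3 the UT interval lay below that of both other libraries.

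The members with the lowest log2 ratios of Ni-E to UT had low levels in Ni-E and were at their highest in Ni-W. OR5H1 on chromosome 3 had 0.229 RPKM in UT (26 reads), 0.087 in Ni-E (13 reads) and 0.409 in Ni-W (49 reads). The pseudogene OR4F13P had 0.291, 0.127 and 0.376 RPKM, and OR4N2, with 10.5% unique words, had 0.273, 0.127 and 0.476. Over all members 8 had a Ni-E interval above that of UT and 3 had one below it, where 2.48% and 8.88% of all listed promoters did.

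After the washout the family's median ratio had the opposite sign to that of all promoters. The median log2 ratio of Ni-W to UT was 0.26 over the 396 members and −0.48 over all listed promoters, and it was −0.86 over the ribosomal protein promoters. By the 1.5-fold limit 111 members (28.0%) were higher in Ni-W and 10 (2.53%) were lower. Of all listed promoters 5.78% were higher and 43.6% were lower. Among the 7849 unmarked promoters 9.8% were higher and 13.2% lower. The unmarked promoters were held above 0 and below 0.6 RPKM in every library, Ni-W included, while the members were not. Of the members 17 were at 0.6 RPKM or more in Ni-W and 35 were at 0 in all libraries. Beside these shares stands the smaller sum of Ni-W reads over the listed windows, 22.9% of the depth against 37.6% in UT. Reads in overlapping windows count more than once in both sums. The evenly spread level of the remaining reads was at least 0.2625 RPKM in Ni-W and at least 0.2125 in UT. The counts rest on the scaling and on the RPKM added. With each library divided by its median, 201 members (50.8%) were higher and 2 (0.505%) lower, where 13.4% and 10.5% of all listed promoters and 24.8% and 3.17% of the unmarked ones were. With 1 RPKM added in place of 0.1, 3 members (0.758%) were higher and 0 lower, where 0.545% and 30.6% of all listed promoters were. The Ni-W interval lay above that of UT in 70 members and below it in 5, where it did so in 4.57% and 50.7% of all listed promoters.

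Ni-W differed from Ni-E in the same direction. The median log2 ratio was 0.14 over the members and −0.47 over all listed promoters, with 90 members higher and 19 lower by the 1.5-fold limit. The background shares were 5.56% higher and 41.6% lower over all listed promoters, and 8.73% and 18.6% over the unmarked ones. The Ni-W interval lay above that of Ni-E in 67 members and below it in 15, where it did so in 5.63% and 50.9% of all listed promoters, and both comparisons share the Ni-W library. Of the 314 unique members, 196 had their highest level in Ni-W, 84 in Ni-E and 34 in UT. Within the unique members the levels of UT and Ni-E went together (Pearson r = 0.8, Spearman rho = 0.56, over 314 promoters), while those of UT and Ni-W did so less (r = 0.31, rho = 0.23). These correlations are across promoters, which share the libraries, their depth and their base composition.

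The difference between Ni-W and UT went with base composition. The 51 unique members with a window GC content under 35% had a median log2 ratio of 0.63, and 98.0% of them were higher in Ni-W. The median was 0.57 in the 100 members between 35% and 38%, 0.31 in the 79 between 38% and 41%, −0.06 in the 53 between 41% and 45%, and −0.31 in the 31 at 45% or more. The unmarked promoters outside the family followed the same order, with medians of 0.56, 0.36, 0.18, −0.01 and −0.25 in the same 5 bins. With the members also held below 0.6 RPKM in every library, their medians were 0.6, 0.54, 0.3, −0.05 and −0.31. Across the 314 members the log2 ratio and the GC content had a Pearson r of −0.57, and across the 7849 unmarked promoters r was −0.48.

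**Figure D4:**
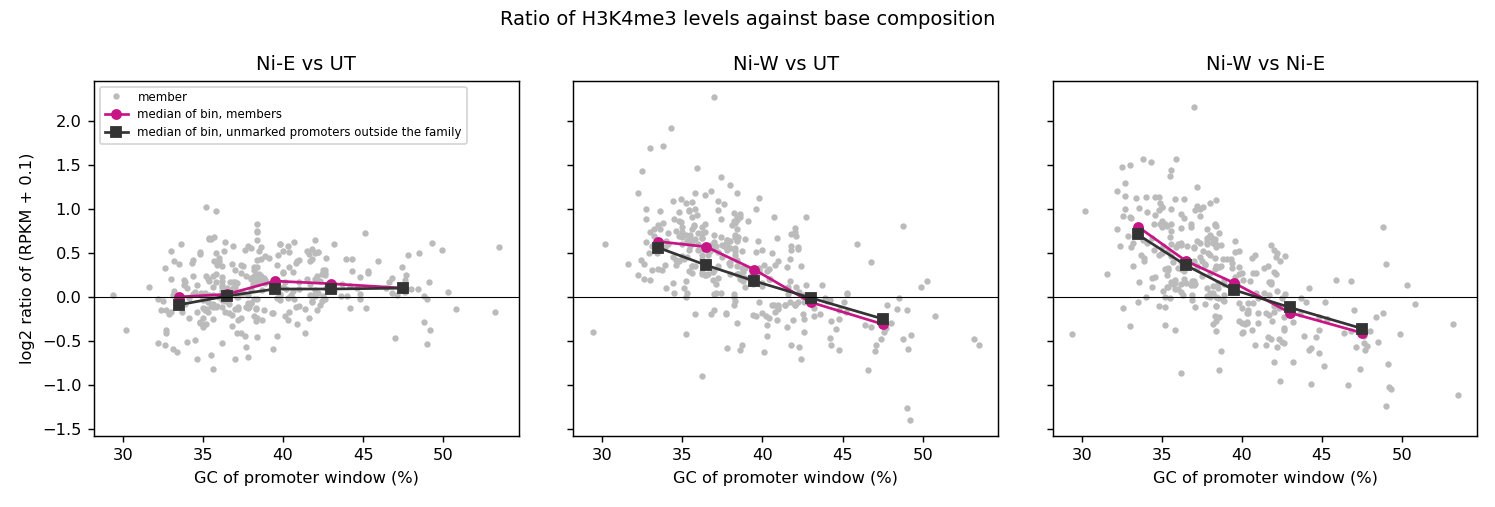
Log2 ratio of H3K4me3 levels (RPKM + 0.1) against the GC content (%) of the 4-kb promoter window, for Ni-E against UT, Ni-W against UT and Ni-W against Ni-E. Grey points are the 314 unique members, and lines join the medians of 5 GC bins for the members and for 7849 unmarked promoters outside the family, which for Ni-W against UT go from 0.63 and 0.56 in the lowest bin to −0.31 and −0.25 in the highest.

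The same order was seen with windows centred on the start codon, where r was −0.62 over 307 members. It was much weaker between Ni-E and UT, with r of 0.16 over the members and 0.07 over the unmarked promoters. The GC of the median member, 38.2%, was lower than the 47.0% of the median unmarked promoter, and the family's median ratio of Ni-W to UT stood above theirs, which was −0.09. At equal GC the members and the unmarked promoters differed by at most 0.21 in median log2 ratio over the 5 bins. Input libraries of UT and Ni-W cells were not analysed here, so the part of sequencing or capture in the dependence on GC was not tested.

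The Ni-W excess was uneven along the genome. Members less than 1 Mb apart were joined into 42 clusters, of which 15 held at least 5 unique members and 287 unique members in all. In 11 of the 15 the median log2 ratio of Ni-W to UT was above 0. The clusters with the largest medians were on chromosome 3 (98087173 to 98497681) and chromosome 12 (55126406 to 55636892), both with 0.69. The 4 clusters with medians below 0 were on chromosome 17 (−0.27), on chromosome 19 (−0.22 and −0.12) and on chromosome 11 at 48216810 to 48488793 (−0.09), all with a median GC above 41%.

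In the chromosome 14 cluster the high Ni-W levels stood next to each other. The first 7 of its 21 members, OR11H2, OR4N2, OR4Q3, OR4M1, OR4K2, OR4K5 and OR4K1, lie within chr14:19713883-19930917. Their levels ran from 0.044 to 0.308 RPKM in UT (median 0.106), from 0.053 to 0.28 in Ni-E (median 0.127) and from 0.209 to 1.027 in Ni-W (median 0.576). The Ni-W interval lay above that of UT in 6 of these 7. The other 14 members, which start at 19975591 and end at 21653835, had medians of 0.185, 0.1935 and 0.1965 RPKM, and the Ni-W interval lay above that of UT in 1 of them. The 7 members had a median GC of 35.9% and the other 14 one of 38.3%, and this stretch was picked out after its values were seen. Among the 7, OR11H2 and OR4N2 have only 12.9% and 10.5% unique words, and OR11H2 gave the lowest of the 7 levels in each library. Among the other 14, OR5AU1 has 77.4%.

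OR4K2 had the largest log2 ratio of Ni-W to UT in the family. It was at 0.097 RPKM in UT (0.0541 to 0.1735, 11 reads), 0.113 in Ni-E (0.07077 to 0.1815, 17 reads) and 0.852 in Ni-W (0.7018 to 1.034, 102 reads), a log2 ratio of Ni-W to UT of 2.27. OR4Q3, in the same stretch, was at 0.106, 0.127 and 0.576 RPKM, with a log2 ratio of 1.71. Both were low in UT and Ni-E and high in Ni-W alone, with intervals that did not overlap. The promoter of OR4K2 printed above holds a single CG in its 300 bases.

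In the chromosome 3 cluster all 10 members, from OR5AC2 to OR5K2, had a higher level in Ni-W than in both other libraries. Its median was 0.229 RPKM in UT, 0.2035 in Ni-E and 0.48 in Ni-W. The cluster had a median GC of 35.2%, and of all unique members 98.0% of those under 35% GC and 91.0% of those between 35% and 38% were higher in Ni-W than in UT. The 3 unmarked promoters outside the family within 500 kb of the cluster had a median log2 ratio of Ni-W to UT of 0.54, against 0.69 for the members. That is fewer than the 5 asked for in the comparison of neighbourhoods below. Near the chromosome 12 cluster 7 such promoters had a median of −0.19, against 0.69 for its members. Near the chromosome 14 cluster 24 had a median of −0.15, against 0.33 for its unique members. GC content was not matched in these comparisons with neighbours. In the chromosome 3 cluster OR5H14 had the largest log2 ratio of Ni-W to UT, 1.92. It was at 0.15 RPKM in UT (0.09348 to 0.2398, 17 reads), 0.227 in Ni-E (34 reads) and 0.844 in Ni-W (0.6943 to 1.025, 101 reads). The Ni-W interval lay above that of UT in 5 of the 10. OR5K1 differed least in level, from 0.194 in UT to 0.276 RPKM in Ni-W, and its intervals in these libraries overlapped. In the chromosome 3 and chromosome 14 clusters the copy number of the Ni-W clone was not tested.

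**Figure D5:**
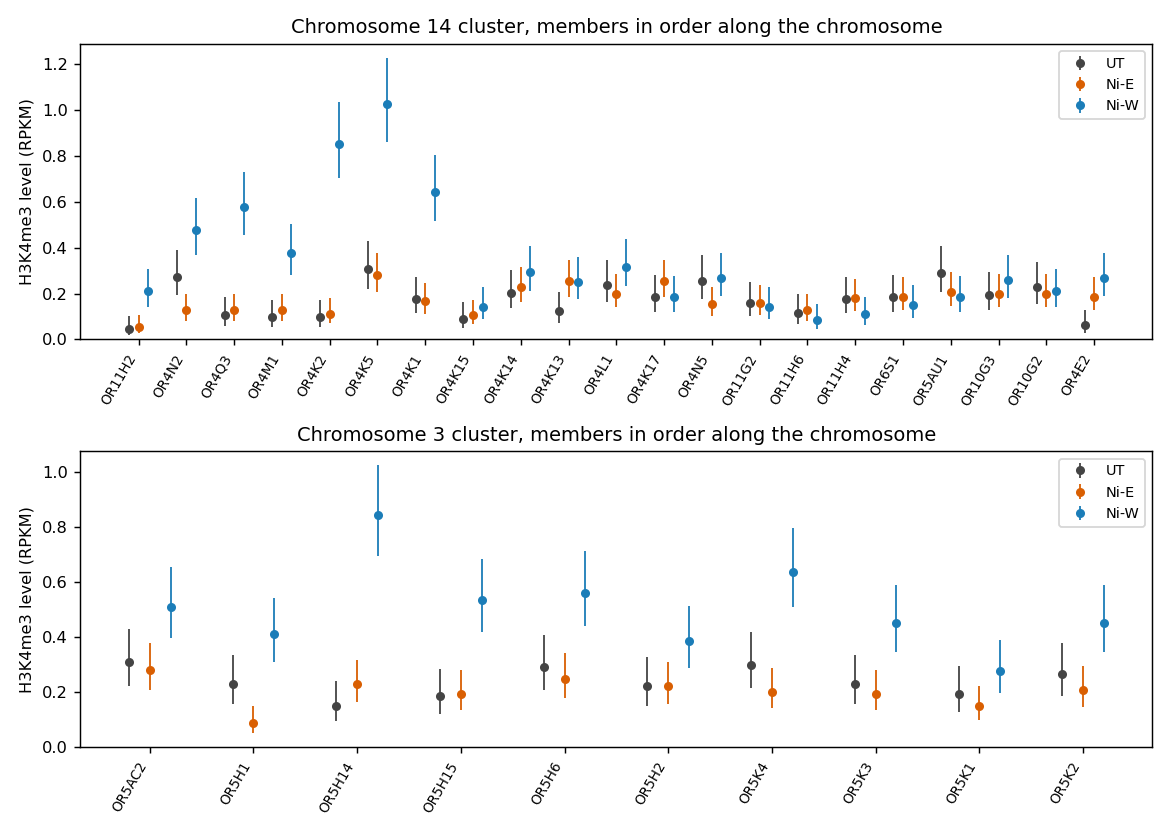
H3K4me3 level (RPKM) of the members of the chromosome 14 and chromosome 3 clusters in their order along the chromosome, in UT, Ni-E and Ni-W, with 95% Wilson intervals as bars. The first 7 members of the chromosome 14 cluster have a Ni-W median of 0.576 RPKM against 0.1965 for the other 14, while all 10 members on chromosome 3 are highest in Ni-W.

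The cluster at 3063607 to 3433841 of chromosome 17 started from a higher level. Its 8 unique members had a median of 0.4095 RPKM in UT, 0.547 in Ni-E and 0.355 in Ni-W, and even its lowest unique member in UT, at 0.379 RPKM, stood above the family's upper quartile. OR1G1 reached 0.733 RPKM in Ni-E from 0.405 in UT and was at 0.384 in Ni-W. The pseudogene OR3A4P was at 0.396 RPKM in UT (45 reads), 0.66 in Ni-E (99 reads) and 0.267 in Ni-W (32 reads). OR4D1, further along the chromosome, was at 0.59, 0.827 and 0.693 RPKM.

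Among members with at least 20 reads over both libraries, OR2V2, OR10P1 and OR51E2 had the lowest log2 ratios of Ni-W to UT. They differed in GC content. OR2V2 on chromosome 5 was at 0.669 RPKM in UT (0.5348 to 0.8377, 76 reads), 0.493 in Ni-E (74 reads) and 0.192 in Ni-W (0.128 to 0.2883, 23 reads), with 49.2% GC. OR10P1 on chromosome 12 was at 0.44, 0.433 and 0.125 RPKM, with 49.0% GC, although it is the last member of the cluster whose median was 0.69 higher in Ni-W on the log2 scale. OR51E2 had a GC content of 36.2%. OR1F1, with 53.5% GC, was at 0.229, 0.387 and 0.125 RPKM and was among the lowest ratios of Ni-W to Ni-E. OR10J1, with 38.6% GC, had a log2 ratio of Ni-W to UT of −0.60.

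Few members shared reads with other promoters. The 4-kb window overlapped that of a listed promoter outside the family for 7 members. Leaving these out gave 110 members higher and 10 lower in Ni-W than in UT. OR10V1 and OR56A3 were at 0.299 and 0.211 RPKM in UT although the GENCODE 5′ ends of marked genes lie inside their windows, which shows that the counted start sites are not always those of GENCODE v44.

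Of a list of 15 genes that serve odour detection, 8 had at least 1 RPKM in all 3 libraries and 7 were below 1 RPKM in all. This share is near the background, since 52.8%, 52.2% and 51.0% of all listed promoters reached 1 RPKM in UT, Ni-E and Ni-W. The 8 included GNAL, the olfactory G protein subunit (5.637, 5.501 and 2.33 RPKM in UT, Ni-E and Ni-W), and ADCY3, an adenylyl cyclase (7.988, 7.288 and 4.193 RPKM). The others were ANO2, a chloride channel, REEP1, which helps receptors to the cell surface, the transcription regulators EBF1, LDB1 and ATF5, and the histone demethylase KDM1A. Several of these are known in many other tissues.

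The other 7 genes of the list were those below 1 RPKM in all 3 libraries, a grouping made by level. The olfactory neuron markers fell in both groups, with GNAL and ADCY3 among the 8 above. OMP, the marker protein of mature olfactory neurons, was at 0.167, 0.207 and 0.1 RPKM. The channel subunits CNGA2 (0.132, 0.14 and 0.15 RPKM), CNGA4 and CNGB1 and the receptor transporters RTP1 and RTP2 were below 0.6 RPKM in every library. LHX2, a homeodomain regulator of receptor genes, was at 0.229 RPKM in UT (26 reads), 0.427 in Ni-E (64 reads) and 0.935 in Ni-W (112 reads). Its level was highest in Ni-W, as that of CNGA2 was by a smaller difference, whereas the marked genes of the list were all lowest in Ni-W.

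RNA was at hand from RT4 bladder cancer cells only, so it describes the family in another line. The samples held 17075833 to 27736454 estimated counts, and 395 of the 396 members were listed. Of these, 347 (87.8%) were at 0 in all 6 samples, as were 31.1% of all genes. The promoters named above for BEAS-2B were among them: OR2L13, OR4K5, OR51E2, OR4K2 and OR5H14 had no counts in any RT4 sample. A mean of at least 1 TPM, a level scaled to transcript length and library size, was reached by 6 members.

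The pseudogene OR7E14P was the most abundant in RNA, with 16.31 and 18.74 TPM in UT, 14.33 and 17.2 in Ni-E and 16.81 and 16.71 in Ni-W. OR1L8 had 7.73 and 8.45, 7.61 and 7.6, and 7.53 and 5.32 TPM, and the pseudogene OR7E91P had 6.68 and 7.86, 6.78 and 7.59, and 6.94 and 6.49 TPM. The groups overlapped for both pseudogenes. For OR1L8 the UT samples lay above those of the other groups, with an edgeR log2 ratio of −0.12 ± 0.28 (SE) for Ni-E and −0.43 ± 0.28 for Ni-W and adjusted p of 0.997 and 0.902. OR51Q1 had a mean of 2.72 TPM, OR10H1 one of 1.838 and OR5E1P one of 1.078. The family 7E pseudogenes have many near-identical copies, so their counts may include reads of other copies.

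No member was called in RT4 by edgeR or DESeq2, and limma on log2(TPM + 1) called 1, OR5E1P, for Ni-E against UT. In edgeR's quasi-likelihood test 8 members passed the filter on low counts among 14502 genes, and 0 of them reached a 1.5-fold difference with an adjusted p below 0.05 in any of the 3 comparisons. The background was 2.17% of genes called for Ni-E against UT, 0.6% for Ni-W against UT and 0% for Ni-W against Ni-E. The number of members with an unadjusted p below 0.05 was also 0 in each, and DESeq2 called 0. The smallest adjusted p for Ni-E against UT was that of OR10H1, with 1.94 and 2.67 TPM in UT against 0.75 and 1.4 in Ni-E, an edgeR log2 ratio of −1.08 ± 0.52 (SE) and an adjusted p of 0.543.

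OR5E1P was too low for the filter and is given by its values. It had estimated counts of 0 and 1 in UT, 8 and 11 in Ni-E and 3 and 5 in Ni-W, and the 2 Ni-E samples lay above both UT samples. Without the filter edgeR gave a log2 ratio of Ni-E to UT of 3.92 with an adjusted p of 0.157, and limma on log2(TPM + 1) gave 1.55 with an adjusted p of 0.0333, and over all alternatives that tested it the adjusted p ranged from 0.0333 to 0.504. In BEAS-2B its promoter held 6, 3 and 6 reads in UT, Ni-E and Ni-W, with 17.2% unique words.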

How the data were processed

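H3K4me3 ChIP-Seq of BEAS-2B cells (1 library per condition) and RNA-Seq of RT4 cells (2 samples per condition, which the methods call biological replicates) were analysed. The authors deposited promoter levels as RPKM. Per the methods, 50-nucleotide reads were aligned to hg38 with BWA, 1 copy of redundant reads was kept, and reads within 2 kb of each start site were counted. The authors deposited RSEM estimated counts (expected counts), TPM and FPKM per gene, and FPKM was not tested. The RNA methods name STAR and hg19 while the labels name GRCh38, and which build the RSEM values come from is not given in the sources used here. The methods describe 2 ChIP replicates, and each deposited file holds 1 set of values.

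Values were divided by the smallest step to recover reads (100.0% whole within 0.0006 RPKM). Ratios were log2((RPKM + 0.1)/(RPKM + 0.1)), which understates changes of low promoters, with a 1.5-fold limit and no test. Positions came from GENCODE v44, with 389 members matched. Estimated counts were rounded and tested with edgeR 4.0.16 (TMM, filterByExpr, 1 model of 3 groups, Benjamini-Hochberg adjustment). DESeq2 1.42.0 and limma 3.58.1 were alternatives. Scripts were tested on simulated data. The members and lists were chosen with earlier results of these data known. Named genes were members at 1 RPKM or more, the 3 nearest that limit, the 3 largest rises and falls per pair among members with at least 20 reads in both libraries together, families with at least 10 members, members with a mean of at least 1 TPM, and the list for odour detection. Others were named after their values were seen.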

Additional observations from a re-analysis of the deposited data

How the results depend on the processing

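Of 118 alternative values, 75 were classed as the same as the reported value and 43 as moved. For levels and median ratios, the same means within the error of the reported value. Counts carry no such error and were classed by the size of the change. For Ni-W against Ni-E, 135 members higher with each library divided by its median, against the reported 90, was classed as the same. Members with at least 80% unique words, an alternative chosen after seeing the data, had median levels of 0.229, 0.247 and 0.317 RPKM in UT, Ni-E and Ni-W, and median log2 ratios of 0.36 for Ni-W against UT and 0.23 for Ni-W against Ni-E. A limit of 0.6 RPKM in place of 1 counted 5, 9 and 17 members in UT, Ni-E and Ni-W and 25 in any, and a limit of 2 RPKM counted 0 in each. With each library divided by its median, the median ratios were 0.16 for Ni-E against UT, 0.6 for Ni-W against UT and 0.35 for Ni-W against Ni-E. The counts higher and lower were then 44 and 4 for Ni-E against UT and 201 and 2 for Ni-W against UT. For Ni-W against Ni-E they were 135 (34.1%) and 10 (2.53%), where 9.41% and 19.1% of all listed promoters were past the limit. After quantile normalization the ratio of Ni-E to UT was 0.0, with 12 higher and 17 lower. The larger count thus changed direction, from the reported 19 higher and 10 lower. In the same setting 5 were lower for Ni-W against UT, and the ratio of Ni-W to Ni-E was 0.24. The share of all listed promoters in this setting is not given here. With a pseudocount of 1 RPKM the ratios for Ni-E against UT, Ni-W against UT and Ni-W against Ni-E were 0.01, 0.07 and 0.04. In that order 0, 3 and 3 members were higher and 0 lower in each. Of all listed promoters 0.0381%, 0.545% and 0.629% were higher and 0.111%, 30.6% and 25.9% lower. Among members with at least 20 reads and with no pseudocount the ratios were 0.12, 0.49 and 0.31. Of 337, 340 and 341 such members 59, 152 and 125 were higher and 24, 28 and 40 lower. The share of all listed promoters under this rule is not given here. The size of the counts thus rests on the pseudocount and the scaling.

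In RT4 the count of called members was 0 in each comparison, and with each replicate left out in turn it ranged from 0 to 0. With the replicate number as a block it was also 0. The correlations over genes of the deviations of same-numbered samples were 0.66, 0.76 and 0.69, so samples of the same number deviated together. The main model left the number out, and the shares of all genes called come from that model. limma on log2(TPM + 1) called 1 member for Ni-E against UT, OR5E1P. The ChIP comparison has no replicates, so no library could be left out of it. Depth limits a single promoter at the background to few reads.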

Other observations

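The RT4 files list 28 symbols of the same form that have no promoter among the BEAS-2B values, and 2 of them had any counts. OR51J1 had 1.11 and 1.13 TPM in UT, 1.44 and 1.75 in Ni-E and 0.79 and 1.11 in Ni-W. OR11H7 had at most 0.3 TPM in any sample.

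Members and other unmarked promoters did not always have the same sign of the Ni-W to UT ratio within a neighbourhood. In 12 olfactory receptor clusters with at least 5 unmarked promoters outside the family within 500 kb, the medians of members and of the others had the same sign in 5. GC content was not matched in this comparison. Its median was 38.2% over the unique members and 47.0% over all unmarked promoters, and the ratio went with GC in both sets.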
